A study of Mus musculus with 10 samples.

Results

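The transcripts of 10 genes that make, read and break down cyclic AMP were followed in mouse oocytes held in prophase of meiosis I, the germinal vesicle stage. The genes were Gpr3, Gpr12, Gnas, Adcy3, Adcy9, Pde3a, Prkaca, Prkar1a, Prkar2b and Akap1, and every probe set whose only gene symbol was one of these was taken. That gave 30 of the 45037 probe sets on the arrays that are not controls, for 10 of 18193 genes. The arrays fell into 2 groups: 5 from CTCF-depleted oocytes and 5 from wild-type oocytes, CTCF being the DNA-binding protein at which many chromatin loops are anchored. The labels used here gave neither how CTCF was depleted nor the strain, age or number of the mice, nor whether samples came from separate animals. The p-values therefore rest on the variation among these arrays alone, and that variation may be technical.

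Cyclic AMP keeps the mouse oocyte from resuming meiosis. GPR3, a receptor that signals without an added ligand, acts through the stimulatory G protein (Gnas) on adenylyl cyclase, and the cyclic AMP made there releases the catalytic subunit of protein kinase A (PKA) from its regulatory subunits. PKA in turn restrains the kinase that drives entry into M phase, and the phosphodiesterase PDE3A ends the arrest when it is free to break cyclic AMP down.

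The clearest change was in Prkar2b, a regulatory subunit of PKA, which rose on each of its 3 probe sets, by 1.49-fold to 1.62-fold. Prkar1a, another regulatory subunit, rose by 1.16-fold on the brightest of its 3 probe sets and did not pass on the others, of which the dimmest had a log2 fold change of -0.79. The remaining regulatory subunits, Prkar2a and Prkar1b, did not pass on their brightest probe sets, with log2 fold changes of 0.03 and -0.11. Their other tested probe sets gave -0.23 to 0.06 for Prkar2a and -0.21 to 0.14 for Prkar1b. Gpr3 fell, by 1.14-fold, on its single probe set. The Prkar1a call was lost in 12 of 22 other settings and the Gpr3 call in 14, and the Prkar2b calls in 0. The stimulatory G protein, both cyclases, the phosphodiesterase, the catalytic subunit and the anchor protein did not pass the test on any probe set. Promoter sequence of the 3 genes that passed is shown here, from the mouse RefSeq windows of build GRCm38.p6, because these are the members whose levels the results turn on.

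The 250 bases before the annotated start were printed for Gpr3 (chr4:133212537-133212786, minus strand) and for the first annotated start of Prkar2b (chr12:32061278-32061527, minus strand). For Prkar1a (chr11:109650889-109650918, plus strand) the 30 bases around a full cyclic AMP response element, TGACGTCA, are given. Capitals mark the response element's half-site, TGACG, on either strand, or the full element for Prkar1a.
Gpr3: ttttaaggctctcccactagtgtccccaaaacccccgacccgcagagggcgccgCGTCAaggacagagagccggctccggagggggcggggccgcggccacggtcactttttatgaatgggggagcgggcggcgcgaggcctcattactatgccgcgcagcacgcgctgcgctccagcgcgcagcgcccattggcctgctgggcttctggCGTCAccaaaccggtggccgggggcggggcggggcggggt
Prkar2b: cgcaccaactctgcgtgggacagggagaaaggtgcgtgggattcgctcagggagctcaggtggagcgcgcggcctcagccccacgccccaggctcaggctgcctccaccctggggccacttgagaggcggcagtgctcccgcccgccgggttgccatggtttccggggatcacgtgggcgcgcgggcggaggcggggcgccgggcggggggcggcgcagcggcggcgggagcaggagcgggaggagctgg
Prkar1a: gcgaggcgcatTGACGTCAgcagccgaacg

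The half-site stood in the Gpr3 window at 2 places, starting 196 and 40 bases before the annotated start. Neither Prkar2b window held it. The full Prkar1a element began 49 bases before the fifth of that gene's 6 annotated starts, and the same copy lay after the fourth. Over all members the RefSeq table held 23 windows of 300 bases for 9 genes, which overlap where starts lie close together. A half-site was found in 9 of these windows, from 5 genes, against 20.8% of all 32851 windows of that length. The full element, which contains the half-site on both strands, was found in 2, both from Prkar1a, against 1.79% of all windows. A strict form of the core of the CTCF motif was found in 0 of the 23 and in 0.557% of all windows, searched on both strands. That form was CCA, C or G, C or T, AG, A or G, G or T, then GGC. Near matches were not counted, so CTCF-like sites in these windows are not excluded. The printed Gpr3 sequence holds such a near match, cccgcagagggc, with CCC in place of CCA. All of these counts are matches of letters in short windows.

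Signals are MAS5 values on a linear scale. The labelled depletion was visible in the Ctcf transcript, whose dimmer probe set read between 7.07 and 61.1 on the depleted arrays and between 699.7 and 877 on the wild-type arrays. All 12 measured oocyte markers lay above the control level on all 10 arrays, that level being the highest of 27 Bacillus control probe sets on each array, between 4.75 and 10.9. Of 14 measured granulosa and cumulus cell markers, 9 did so and 1, Tnfaip6, on no array, and the list's summed signal ran from 953 to 1146 on depleted arrays and from 868 to 1512 on wild-type arrays. Of the 13 tested on that list, 2 rose, Fshr by 2.01-fold and Nr5a2 by 1.24-fold, and 11 did not pass; the log2 fold changes ran from -0.96 (Has2) to 1.01 (Fshr), with a median of -0.10. Of 12 markers of theca, stroma, blood and immune cells, 3 lay above the control level on all arrays, with sums of 144 to 182 on depleted and 161 to 197 on wild-type arrays. The part of other cells in the results was not tested, and in such bulk samples fewer cells of a type and less RNA per cell cannot be told apart. The actin control probe sets differed by log2 values of 0.05 to 0.17, and those of Gapdh were higher in depleted oocytes by 0.49 to 0.68 (exact permutation p = 0.00794, two-sided; 5 against 5 arrays can give no smaller value).

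Of the 30 member probe sets, 24 passed the filter on low signal and were tested, and 19 lay above the control level on all 10 arrays. In limma with Benjamini-Hochberg adjustment over 27022 probe sets, 4 of the 24 were called higher in depleted oocytes and 1 lower, at an adjusted p under 0.05. Over all tested probe sets 5.48% were called higher and 7.12% lower, or 12.6% either way. Among the members 3 of the 4 rises came from 1 gene, so the count over probe sets is a count of 3 genes. The groups did not overlap on the same 5 probe sets, against 11.1% of all tested probe sets. Depleted arrays lay above on 4 of them (4.69% of all) and below on 1 (6.38% of all). The median log2 fold change of the 24 was 0.01, beside -0.02 over all tested probe sets.

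**Figure D1:**
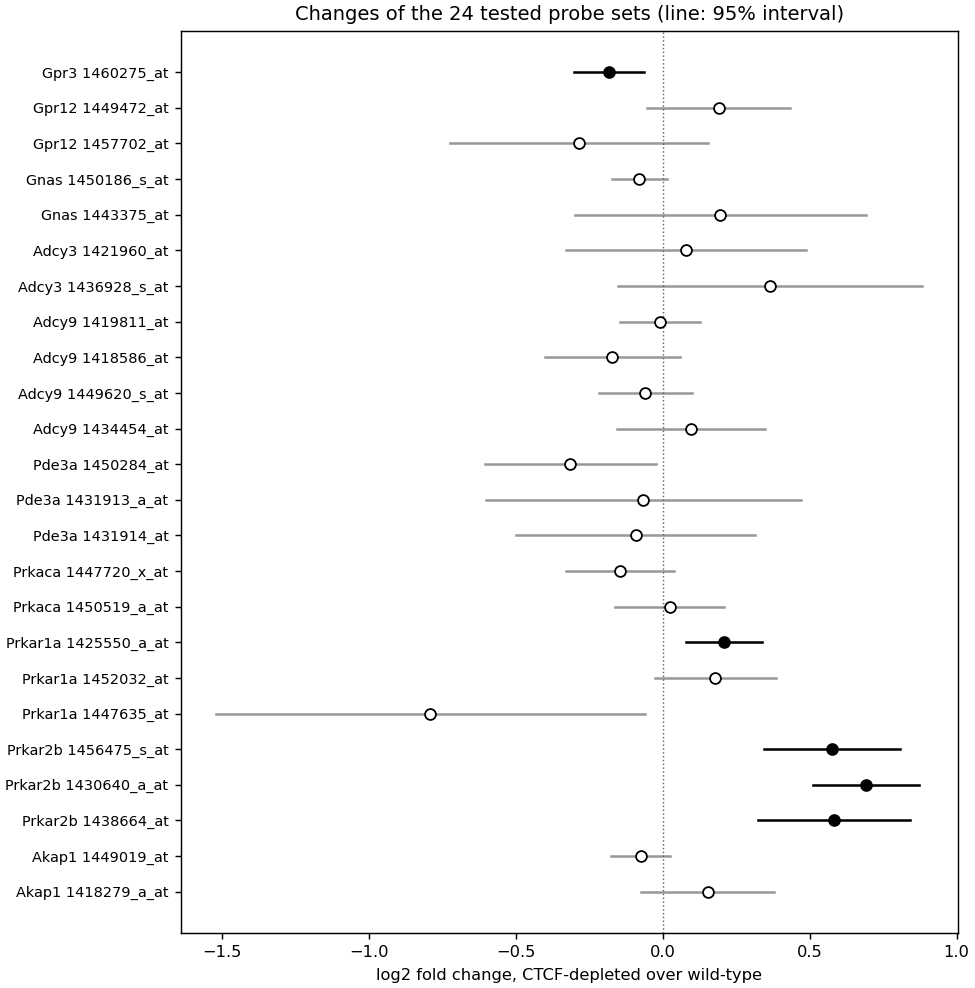
Log2 fold change of each tested probe set of the 10 genes, CTCF-depleted over wild-type, in the order receptors, G protein, cyclases, phosphodiesterase, PKA subunits and anchor protein; lines are 95% intervals from limma and filled points passed an adjusted p of 0.05. The 3 Prkar2b probe sets sit together between 0.58 and 0.69, and the wide intervals belong to dim probe sets.

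Prkar2b encodes a regulatory subunit of the type II kinase, which binds anchor proteins tightly. On its brightest probe set (1456475_s_at) the signal was 529, 427, 449, 523 and 484 on the depleted arrays, replicates 1 to 5, and 343, 321, 349, 385 and 233 on the wild-type arrays. Every depleted array lay above every wild-type array, and wild-type replicate 5 was the lowest of all 10. The means were 482 ± 44.5 in depleted and 326 ± 57.1 in wild-type oocytes (SD, n = 5). In limma the log2 fold change was 0.58, with a standard error of 0.11 and an adjusted p of 0.00181.

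The middle probe set (1430640_a_at) had the tightest wild-type group of the 3. Its signals were 181, 183, 149, 183 and 163 on the depleted arrays and 111, 107, 109, 102 and 97.7 on the wild-type arrays. The groups stood well apart, at 172 ± 15.0 and 105 ± 5.58 (SD, n = 5), and limma put the log2 fold change at 0.69 with a standard error of 0.08 (adjusted p = 3.11e-05).

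The dimmest probe set (1438664_at) gave nearly the same change as the brightest. It read 126, 97.6, 112, 122 and 118 in depleted oocytes and 78.9, 84.6, 83.0, 82.5 and 54.1 in wild-type oocytes, so that wild-type replicate 5 was again low. Its log2 fold change was 0.58 with a standard error of 0.12 (limma, adjusted p = 0.00410). Each of the 3 probe sets gave the smallest exact permutation p that this design allows, 0.00794. Without wild-type replicate 5 the log2 fold changes were 0.46 for the brightest, 0.67 for the middle and 0.47 for the dimmest probe set, all still called.

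**Figure D2:**
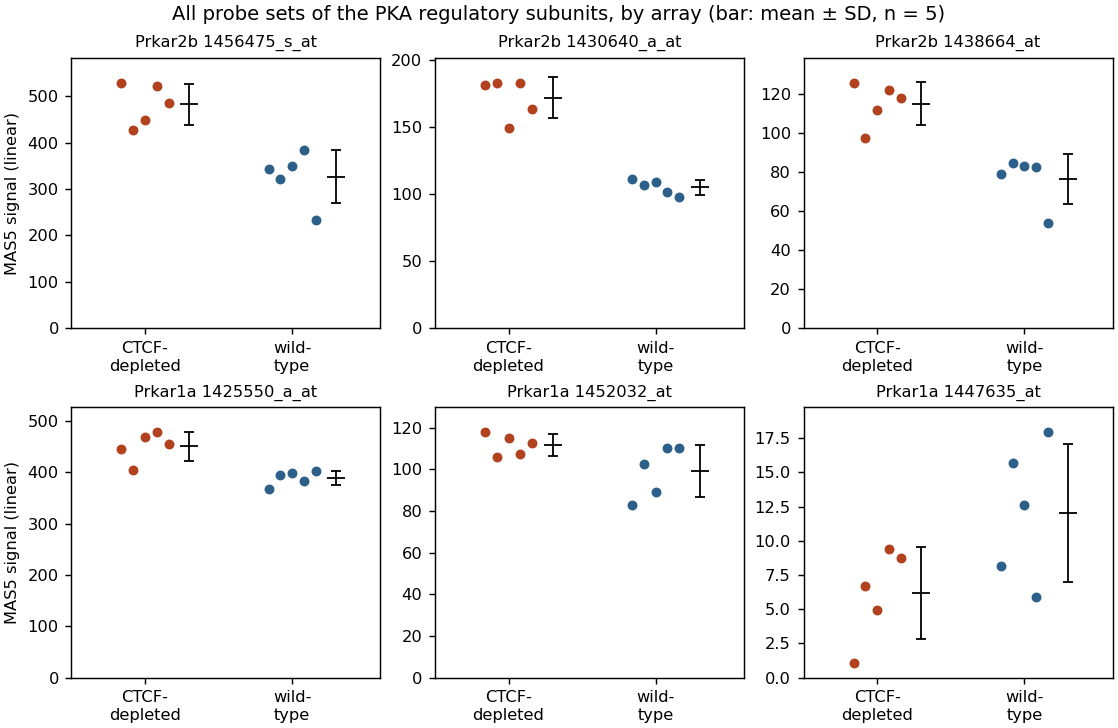
MAS5 signal on each array for the 3 Prkar2b probe sets (top) and the 3 Prkar1a probe sets (bottom); red points are CTCF-depleted and blue points wild-type arrays, with black bars for the mean ± SD of 5 arrays. Depleted arrays sit above wild-type arrays in all Prkar2b panels and in the brightest Prkar1a panel, and the dimmest Prkar1a panel has the lower depleted mean, 6.16 against 12.04.

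Prkar1a encodes the regulatory subunit of the type I kinase, which is mostly soluble. Its brightest probe set (1425550_a_at) read 446, 405, 468, 479 and 455 on the depleted arrays and 368, 395, 399, 382 and 403 on the wild-type arrays. The groups did not overlap, although depleted replicate 2 lay only just above wild-type replicate 5. The means were 451 ± 28.5 and 389 ± 14.0 (SD, n = 5), and the log2 fold change 0.21 with a standard error of 0.06 (limma, adjusted p = 0.0353).

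The other Prkar1a probe sets did not pass. The second (1452032_at) averaged 112 ± 5.16 in depleted and 99.1 ± 12.5 in wild-type oocytes, a log2 fold change of 0.18 with a 95% interval from -0.03 to 0.38. The third (1447635_at) was dim, above the control level on 2 depleted and 3 wild-type arrays, and gave -0.79 with an interval from -1.52 to -0.06 (adjusted p = 0.157). The call of the brightest probe set was lost with quantile normalization (adjusted p = 0.0537), without an intensity trend (0.0707) and without any 1 of 9 arrays, the highest adjusted p being 0.0958 without depleted replicate 4.

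Prkaca encodes the catalytic subunit that both regulatory subunits hold inactive. Its brighter probe set, which the array design marks as open to cross-hybridisation, read 599, 443, 621, 525 and 464 on the depleted arrays, against 569.8, 602, 592, 529 and 622 on the wild-type arrays. The depleted arrays spread more widely, and the groups overlapped. The log2 fold change was -0.15 with a 95% interval from -0.33 to 0.04 (adjusted p = 0.328). The dimmer probe set averaged 141 ± 16.3 in depleted and 138 ± 6.58 in wild-type oocytes, a log2 fold change of 0.02 with an interval from -0.16 to 0.21.

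Akap1 encodes an anchor protein that tethers PKA at the outer mitochondrial membrane. Its brighter probe set read between 1464 and 1641 on depleted and between 1539 and 1700.2 on wild-type arrays, with a log2 fold change of -0.08 and an interval from -0.18 to 0.02. The dimmer one gave 0.15, from -0.07 to 0.38. The probe sets differed in sign and neither passed (adjusted p = 0.345 and 0.418).

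Gpr3, the receptor whose activity the arrest requires in mouse, had 1 probe set (1460275_at). It read 633, 572, 606, 550.0 and 631 on the depleted arrays and 696, 649, 684, 691 and 674 on the wild-type arrays. No depleted array reached the lowest wild-type array, replicate 2. The means were 598 ± 36.6 and 679 ± 18.5 (SD, n = 5), 88.1% of wild type, and the log2 fold change -0.18 with a standard error of 0.06 (limma, adjusted p = 0.0407; exact permutation p = 0.00794). The call was lost with arrays centred on their medians, where the log2 fold change was -0.10 (adjusted p = 0.420), with each array's 3-prime over 5-prime ratio in the model (0.117), without the filter (0.05265), without an intensity trend (0.0939) and without any 1 of 8 arrays (at most 0.111, without depleted replicate 4).

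Gpr12 encodes a related receptor, known to act in the arrest of rat oocytes. Its brightest probe set read 57.0, 81.3, 79.5, 67.9 and 74.9 in depleted oocytes and 58.0, 65.4, 67.6, 66.3 and 55.7 in wild-type oocytes. Of the depleted arrays, 4 lay above all wild-type arrays and replicate 1 lay among the low ones. The log2 fold change of 0.19 did not pass, with a 95% interval from -0.05 to 0.43 (adjusted p = 0.335). The second probe set gave -0.29 (adjusted p = 0.436) at means of 12.1 in depleted and 14.8 in wild-type oocytes, and the third, at 6.55 and 4.01, was left out by the filter.

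Gnas encodes the stimulatory G protein subunit from a locus with several imprinted transcripts. Of its 5 probe sets only 1450186_s_at was bright, and that one matches several transcripts, so the products of the locus cannot be told apart. It read 1956, 1936, 1893, 1896 and 1918 in depleted oocytes and 2201, 1965, 1943, 1970.0 and 2082 in wild-type oocytes. The depleted arrays were closely grouped at 1919.7 ± 26.7 and the wild-type arrays spread more, at 2032 ± 109 (SD, n = 5), with replicate 1 highest. The log2 fold change was -0.08, from -0.17 to 0.01 (adjusted p = 0.281). The other 4 read at most 8.10 on any array, 3 of them left out by the filter.

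The cyclases did not pass on any probe set. Adcy9 read between 482 and 565 on depleted and between 513 and 602 on wild-type arrays on its brightest probe set, with a log2 fold change of -0.01 and a 95% interval from -0.14 to 0.12. Its other 3 probe sets gave log2 fold changes from -0.17 to 0.10. Adcy3, the cyclase linked to the arrest in mouse oocytes, was dim: its brightest probe set averaged 18.9 ± 4.95 in depleted and 17.6 ± 3.41 in wild-type oocytes (SD, n = 5), and the interval of its log2 fold change ran from -0.33 to 0.49. Another Adcy3 probe set gave 0.36, from -0.15 to 0.88, and the remaining 2 lay above the control level on no array and were left out by the filter.

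Pde3a, the phosphodiesterase that acts at meiotic resumption, was dim on the array. Its brightest probe set (1450284_at) read 33.1, 30.3, 23.8, 31.1 and 30.7 in depleted oocytes and 40.01, 34.5, 33.0, 45.8 and 35.2 in wild-type oocytes. Only depleted replicate 1 reached the wild-type range, just above wild-type replicate 3. The means were 29.8 ± 3.51 and 37.7 ± 5.22 (SD, n = 5) and the log2 fold change -0.31, with a 95% interval from -0.61 to -0.02. It did not pass after adjustment over all probe sets (limma, adjusted p = 0.159), although the exact permutation p of the single value was 0.0159. The other 2 probe sets, at means of 13.0 to 13.8, gave -0.07 and -0.09.

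**Figure D3:**
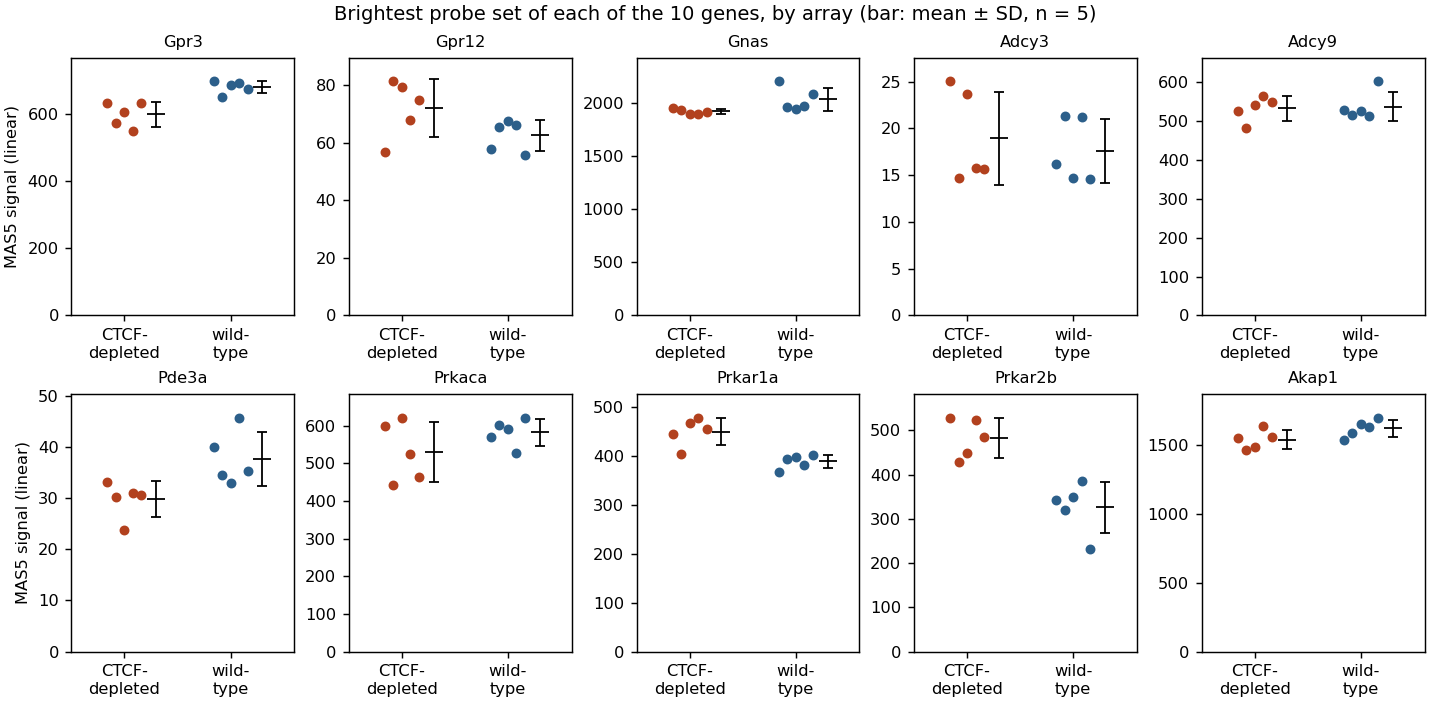
MAS5 signal on each array for the brightest tested probe set of each of the 10 genes, with axes from 0; red points are CTCF-depleted and blue points wild-type arrays, and black bars give the mean ± SD of 5 arrays. Depleted points lie above all wild-type points for Prkar1a and Prkar2b and below all of them for Gpr3, and the groups overlap for the other 7 genes.

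Precision differed with brightness. The 12 tested probe sets with a wild-type mean of at least 100 had coefficients of variation from 1.39% to 16.5% among depleted arrays and from 2.72% to 17.5% among wild-type arrays. The 12 dimmer ones reached 54.5% and 41.9%. For 13 of the 19 probe sets that did not pass, the 95% interval lay within a 1.5-fold change either way. The intervals of the other 6, from Gpr12, Gnas, Adcy3, Pde3a and Prkar1a, allowed larger changes.

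The members were also set against each other within each array, since a ratio of 2 genes on the same array hardly depends on the scaling of the array. All 45 pairs of the 10 genes were computed on their brightest probe sets, and the p-values are given without adjustment. In 11 pairs the groups did not overlap (exact permutation p = 0.00794), and each of these 11 held Prkar1a or Prkar2b, which occur in 17 of the 45. Pairs that share a gene are not independent. The groups were already apart on these probe sets of Prkar1a and Prkar2b taken alone, so the 11 pairs are not separate evidence of a rise.

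Prkar2b rose relative to Gpr3 by 1.69-fold, to Pde3a by 1.85-fold, to Gnas by 1.58-fold, to Akap1 by 1.57-fold and to Adcy9 by 1.501-fold. Against the catalytic subunit Prkaca it rose 1.65-fold, with the ranges of the groups just meeting (exact permutation p = 0.0159). Prkar1a rose 1.28-fold against Prkaca, its log2 ratio lying between -0.42 and -0.03 on depleted and between -0.63 and -0.47 on wild-type arrays. Both Prkaca ratios used its brighter probe set, the one open to cross-hybridisation, whose log2 fold change was -0.15. The dimmer Prkaca probe set gave 0.02, and ratios to it were not computed. Between the 2 regulatory subunits the ratio also shifted, toward Prkar2b by 1.29-fold (exact permutation p = 0.0159). Prkar1a over Gpr12 differed by only 0.02 on the log2 scale (exact permutation p = 0.857), and Gpr3 over Gnas by -0.10 (p = 0.0952).

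**Figure D4:**
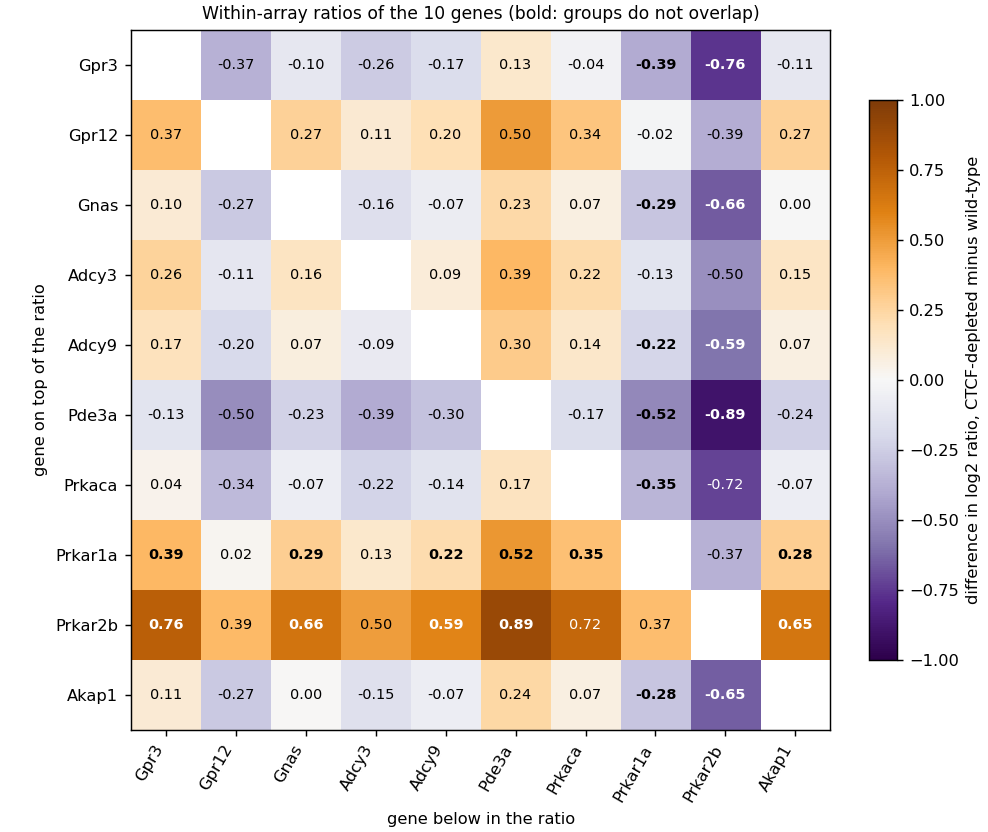
Difference between CTCF-depleted and wild-type arrays in the mean log2 ratio of each pair of the 10 genes (row over column, brightest probe sets, 5 arrays a group); orange is a higher ratio in depleted oocytes, purple a lower one, and bold values mark pairs whose groups do not overlap. Bold values occur only in the rows and columns of Prkar1a and Prkar2b, the largest being 0.89 for Prkar2b over Pde3a.

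The rest of the pathway was followed in 7 lists with 102 genes, of which 81 were tested, each on its brightest tested probe set. Of these, 6 rose and 4 fell, or 10 in all, against 7.26% called higher and 9.12% called lower of all 13811 genes tested. With all tested probe sets of each gene averaged, 4 were called higher and 7 lower, so the balance of directions depended on that choice. On the brightest probe sets the median log2 fold change was 0.03, beside -0.02 over all genes.

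Among 17 G protein genes and receptors, 1 rose and 1 fell, and both encode subunits of the inhibitory G protein class, which lowers cyclase activity. Gnai1 read between 575 and 776 on depleted and between 1101 and 1281 on wild-type arrays. It fell by 0.81 on the log2 scale, or 1.75-fold, with a standard error of 0.07 (limma, adjusted p = 8.98e-07), and its other 2 tested probe sets gave -0.82 and -0.64. Gnaz rose 1.46-fold, at 125 ± 6.43 against 85.0 ± 8.02 (SD, n = 5; limma, adjusted p = 0.000543). Gnai2 and Gnai3 had log2 fold changes of -0.14 and 0.01 and did not pass.

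Of 6 other cyclases none rose and 1 fell: Adcy10, the soluble cyclase, was dim at 12.5 ± 2.56 in depleted and 24.3 ± 2.77 in wild-type oocytes (SD, n = 5), a log2 fold change of -0.85. Of 16 other phosphodiesterases 1 rose and 1 fell. Pde8a, an enzyme specific for cyclic AMP, rose 1.20-fold, with 680.3 ± 31.9 in depleted and 565 ± 17.4 in wild-type oocytes (adjusted p = 0.00300), and 0.08 on its other probe set. Pde4d fell by 0.90 on the log2 scale at dim signals, 10.3 ± 2.29 against 21.8 ± 6.27. Pde3b, the other member of the Pde3 family, had a log2 fold change of 0.12 and did not pass (adjusted p = 0.180).

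Of 6 other PKA subunits and inhibitors 1 rose, Prkx, a related catalytic kinase, by 1.35-fold, with -0.39 and -0.07 on its other tested probe sets. Prkar2a, the second type II regulatory subunit, averaged 1003 in depleted and 982 in wild-type oocytes and had a log2 fold change of 0.03, and Prkar1b and Prkacb had -0.11 and 0.08. None of these 3 passed. Of 13 other anchor proteins 1 rose, Akap2, by 1.37-fold (adjusted p = 0.0455), with -0.21 on its other probe set, and the call was lost without any 1 of 9 arrays. Of 14 targets and effectors of cyclic AMP and PKA 1 rose, Crtc3, by 1.30-fold (limma, adjusted p = 0.00530), with 0.03 on its other probe set. Crtc3 encodes a coactivator of the cyclic AMP response element binding protein. Wee2 and Cdc25b, the kinase and the phosphatase through which PKA holds the cell cycle engine, had log2 fold changes of -0.02 and -0.19 (adjusted p = 0.880 and 0.0868).

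Cyclic GMP reaches the oocyte from the surrounding cells through gap junctions and inhibits PDE3A. Of 9 genes tested on that side 1 rose and 1 fell, both of them kinases activated by cyclic GMP. Prkg2 fell 2.30-fold, at 26.8 ± 5.96 in depleted and 64.7 ± 13.6 in wild-type oocytes (SD, n = 5; limma, adjusted p = 8.20e-05), with -1.15 and -0.89 on its other tested probe sets. Prkg1 rose 1.25-fold (adjusted p = 0.0367), with 0.08 on its other probe set, and its call was lost without any 1 of 6 arrays. Gja4, the oocyte's gap junction protein, averaged 5053 in depleted and 4922 in wild-type oocytes, a log2 fold change of 0.04 that did not pass. Npr2, the receptor that makes cyclic GMP in the follicle, was dim, at means of 13.8 in depleted and 17.7 in wild-type oocytes, and did not pass.

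**Figure D5:**
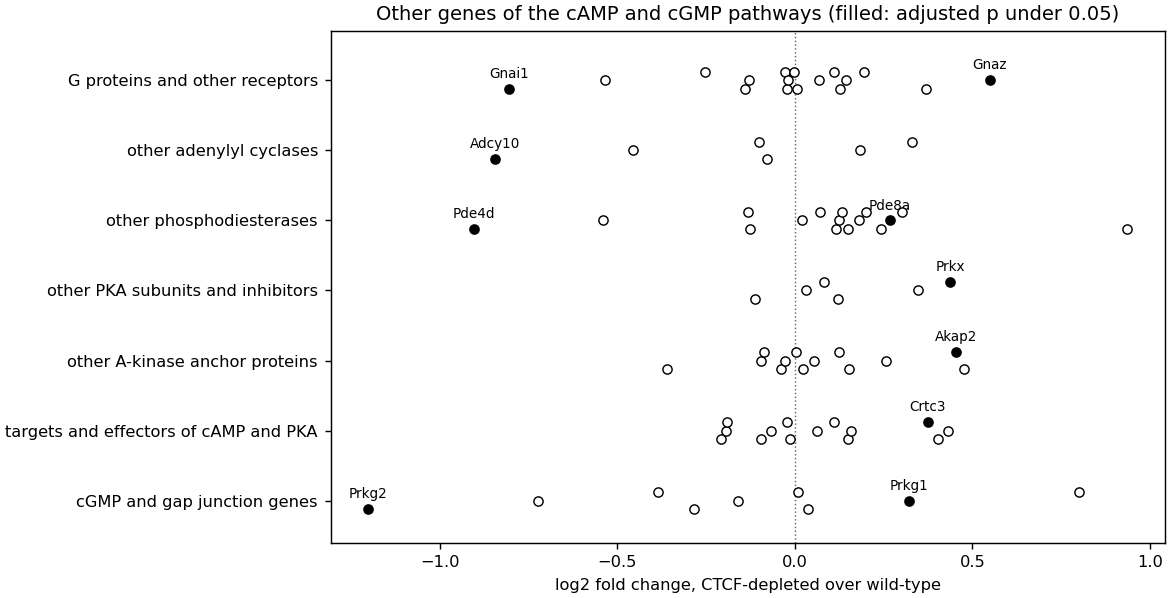
Log2 fold change, CTCF-depleted over wild-type, of 81 other genes in 7 lists of the cyclic AMP and cyclic GMP pathways, each on its brightest tested probe set; filled, named points passed an adjusted p of 0.05. The named genes run from -1.20 for Prkg2 to 0.55 for Gnaz, and no list has more than 1 gene called in either direction.

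Genes whose log2 signal followed Gpr3 and Pde3a most closely were found by Pearson correlation over the 10 arrays, among 10291 probe sets with 1 symbol and a mean signal of at least 100. For Gpr3 these were Nrf1, with r = 0.97, Thumpd3, with 0.95, and Rims1, with 0.95. For Pde3a they were Dnlz, with 0.94, Zfp639, with 0.92, and Ece2, with 0.92. All arrays share the group difference, and after the group means were taken out the correlations were 0.90, 0.85 and 0.87 for Gpr3 and 0.87, 0.88 and 0.88 for Pde3a. These are the highest of many values and are given as a description.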

How the data were processed

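RNA from germinal vesicle oocytes was measured on single-channel arrays. The deposited intensity values were made by the authors with MAS5, per the submitters' processing notes; its settings are not given in the sources used here. MAS5 subtracts mismatch signal, so dim values vary. Without the lowest and highest 2% of values each array averaged 150.001, so every array carries a single scaling factor, and a difference in total signal between groups would be hidden. Precision is set by the number of arrays. Array-to-array correlations across probe sets were 0.982 to 0.986 inside a group and 0.976 to 0.981 between groups.

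Titles gave the groups. An offset of 2.47, the 25th percentile of the signals, was added before taking log2, and fold changes on this scale are too small for dim genes. The 64 control probe sets were dropped, as was every probe set under the 40th percentile of mean log2 value (signal 5.13), and 27022 remained. R 4.3.3 and limma 3.58.1 fitted these (eBayes, trend on intensity), and Benjamini-Hochberg adjustment ran over all of them. Fold changes are depleted over wild type with 95% intervals. For single values an exact permutation test, two-sided, was used. Genes outside the members were read from their brightest tested probe set. In the platform annotation 34945 probe sets had 1 symbol, 932 several and 9160 none. Members, lists and alternatives were chosen with earlier results of these data known. By rule, all member and Ctcf probe sets, called list genes (up to 6 a list), the Actb and Gapdh controls and the 3 best correlates of Gpr3 and of Pde3a were named; other list genes were named after their values were seen. List genes lacking a probe set with a single symbol were not analysed here.

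Alternatives changed the offset, filter, scaling, variance model, array weights and threshold, blocked on the replicate number, added the 3-prime over 5-prime ratio, averaged probe sets of a gene, or dropped each array. Same-numbered arrays did not deviate together (correlations of 0.0024 to 0.051 in 5 pairs), so numbers were not treated as pairs.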

Additional observations from a re-analysis of the deposited data

Results flagged for a closer look

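Among 52 groups of 5 arrays, those of the tested member probe sets and of Ctcf, 7 held an array far from the other 4, where chance gives about 1 in 20. In the depleted group, replicate 5 kept more Ctcf signal than the others, at 61.1 on the dimmer probe set (next highest 14.2) and 95.8 on the brighter (next highest 29.3). Without it the 3 Prkar2b probe sets stayed called. Also in the depleted group, replicate 1 was high for a dim Pde3a probe set, at 18.4 (next 12.2), and for the dimmer Prkaca probe set, at 169.6 (next 139.7), and replicate 4 for a dim Gpr12 probe set, at 19.9 (next 10.97). In the wild-type group, replicate 5 was low for the dimmest Prkar2b probe set, at 54.1 (next 78.9), and high for the brightest Adcy9 probe set, at 602 (next 528).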

How the results depend on the processing

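The rise of Prkar2b was the member result that held throughout: its 3 probe sets were called higher in all 22 other settings, with log2 fold changes from 0.46 to 0.78 and adjusted p of at most 0.0226 (0.0192 and 0.000457 for the other 2 probe sets). The count of member probe sets called higher was 3 or 4 in every setting (3 to 4 with single arrays left out). The count called lower, 1, rested on Gpr3 and was 0 without the filter, with median centring, without an intensity trend, with the 3-prime to 5-prime covariate, at an adjusted p under 0.01 and without depleted replicates 2 and 5 together, a setting chosen after seeing the data. With single arrays left out it was 0 to 1. Of the other pathway genes 4 to 8 were called higher in all settings (4 to 6 with single arrays left out). The 4 called lower became 2 with the filter at the 60th percentile and 7, against 4 higher, when all tested probe sets of each gene were averaged, and were 4 to 6 with single arrays left out. At an adjusted p under 0.01, 1821 probe sets were called in place of 3406, and with single arrays left out 2743 to 3314. The scaling moved the direction of all calls: 56.5% were lower on the deposited scaling, 33.3% with median centring (2179 higher and 1086 lower) and 52.0% with quantile normalization. With the replicate number as a replicate block, 3581 probe sets were called, with 4 member probe sets higher and 1 lower, and 5 other pathway genes lower; 2 of 5 depleted arrays correlated best with their own number. Signals near the control level limit Adcy3, all but 1 Gnas probe set and all but the brightest probe set of Pde3a and of Gpr12. They also limit the dimmest Prkar1a probe set. The brightest Pde3a probe set was dim but lay above the control level on every array.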
